A study of Mus musculus with 20 samples.

Results

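The subunits of the 26S proteasome and its activators were followed in the livers of male C57/B6J mice (strain C57/BL6 in the sample labels) aged 12 weeks. Livers were taken 4 hours after IL-1β at 20 µg/kg (5 mice) or after saline (5 mice, called untreated by the study). No mouse carried an allele or transgene that the labels name, and each library held poly-A RNA of the liver of 1 mouse. RNA of every liver was sequenced on both the Illumina and the Ion Torrent platform and aligned with GSNAP, with STAR, or with STAR followed by Bowtie2, so that each mouse has a column in each of 6 count tables. Members were chosen by symbol: every Psma, Psmb, Psmc or Psmd gene with a number, without the immunoproteasome subunits Psmb8, Psmb9 and Psmb10, and with the activators Psme1 to Psme4. The rule found 41 of 37681 genes. They stand for 40 symbols, since Psmd14 is listed again on a second row that overlaps the first and held no read in any table.

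The proteasome degrades proteins that carry chains of ubiquitin. Its 20S core is a barrel of outer alpha rings (Psma genes), which gate the entry, and inner beta rings (Psmb genes), of which Psmb5, Psmb6 and Psmb7 are the proteases. The 19S cap recognises ubiquitin, removes it and threads the protein into the barrel with a ring of ATPases (Psmc genes) and a set of scaffold, receptor and deubiquitinase subunits (Psmd genes). The activators (Psme genes) can dock on the barrel in place of the cap. Under inflammatory signals such as interferon gamma, newly made barrels can take up Psmb8, Psmb9 and Psmb10 instead of Psmb5, Psmb6 and Psmb7, which shifts the peptides they cut.

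With the study's threshold for a detected gene, at least 5 reads in at least 5 of 10 libraries in any table, 39 of the 41 member rows were tested, among 15578 genes. Besides the second Psmd14 row, Psmb11, the thymus form of the catalytic beta subunit, fell below it. Psmb11 had 0 reads in the 10 libraries of every table, which allows up to 3 reads over them and is a limit of counting only. Counts were compared within each table by edgeR's quasi-likelihood test after TMM scaling, with Benjamini-Hochberg adjustment over all genes tested, and a gene is said to be called at an adjusted p below 0.05. A normalised read count is the deposited count divided by the TMM-scaled library size, relative to the mean of its table.

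Library totals ran from 10568530 to 12008799 reads on Illumina and from 12199528 to 16439683 on Ion Torrent. In every table each IL-1β library had fewer reads than each saline library. With GSNAP on Illumina the totals were 11203762 to 11299651 after IL-1β and 11539468 to 11727437 after saline. The acute-phase genes Saa1, Saa2, Saa3 and Lcn2 were called higher in all 6 tables, which marks the treated livers. Of 6 hepatocyte markers 3 were called lower and 1 higher in the Illumina GSNAP table. The summed level of 6 neutrophil markers lay between 25.9 and 61.8 normalised reads in the saline libraries and between 585 and 1228 in the IL-1β libraries of that table, and 5 of the 5 that were tested were called higher. Of the tested markers of other cells, 3 of 3 for B cells were called lower there, as was 1 of 2 for T cells, while 1 was called higher and 2 lower of 5 for macrophages, 1 higher and 1 lower of 4 for endothelium, and 0 of 3 for red cells. In liver, fewer cells of a type and less RNA per cell cannot be told apart, and the part of these marker changes in the members' values was not tested. The Illumina library of saline mouse UNT_9584 stood apart: its deviations from its group correlated with those of its own Ion Torrent library at r = 0.198 to 0.248 over genes, against 0.547 to 0.720 for the 9 other mice. Over genes, the SD of its log2 difference from the other 4 saline libraries was 0.429 to 0.433 in the Illumina tables, where the 9 other libraries had 0.278 to 0.376. Its Ion Torrent library had 0.326 to 0.349, within the 0.300 to 0.460 of the others there. The study describes the Ion Torrent read lengths of this mouse as displaced from those of the rest, and the part of either in the members' values was not tested.

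Proteasome subunit mRNA was higher after IL-1β, by a modest amount and in many subunits. In the Illumina GSNAP table, edgeR called 22 of the 39 members higher (23.7% of all genes were) and 0 lower (23.9% of all genes). In the Ion Torrent GSNAP table it called 24 higher (22.5% of all genes) and 0 lower (23.9%). The STAR tables gave 20 members higher on Illumina (22.7% of all genes) and 20 on Ion Torrent (20.3%). Without mouse UNT_9584 the GSNAP counts were 26 on Illumina and 18 on Ion Torrent. With STAR and Bowtie2, all mice kept, they were 22 on Illumina (22.9% of all genes) and 23 on Ion Torrent (22.8%). Single mice weighed on the Ion Torrent counts. With GSNAP these were 13, 15 and 14 without ILB_9582, UNT_9575 and UNT_9576. With STAR and Bowtie2 they were 12, 15, 14 and 15 without ILB_9582, UNT_9574, UNT_9576 and UNT_9580. The share of all genes called was not counted for any fit that leaves out a mouse. The median log2 fold change over members was 0.25 in the Illumina GSNAP table and 0.25 in the Ion Torrent GSNAP table, beside 0.00 over all genes in both.

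No member was called lower by edgeR in any of the 6 tables, where 22.9% (Illumina STAR), 24.4% (Illumina STAR and Bowtie2), 21.8% (Ion Torrent STAR) and 24.0% (Ion Torrent STAR and Bowtie2) of all genes were. At an unadjusted p below 0.05 edgeR gave 1 lower member, Psmd5 in the Illumina STAR and Bowtie2 table, and 0 in the other five. The share of all genes lower at that threshold was not counted. Members and genes in general were counted after scaling. With no scaling factor the median gene with a mean of 10 or more reads moved by -0.12 on the log2 scale in the Illumina GSNAP table and by -0.10 in the Ion Torrent GSNAP table, and the members' median was 0.13 and 0.14. The members called then numbered 13 higher and 2 lower on Illumina (18.4% and 29.0% of all genes) and 8 higher and 0 lower on Ion Torrent (17.9% and 28.5%). The rank test of the study on the deposited counts called 12 higher and 2 lower on Illumina (14.3% and 25.7% of all genes) and 7 higher and 1 lower on Ion Torrent (13.2% and 25.6%). That test does not adjust for library totals, which were lower after IL-1β.

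**Figure D1:**
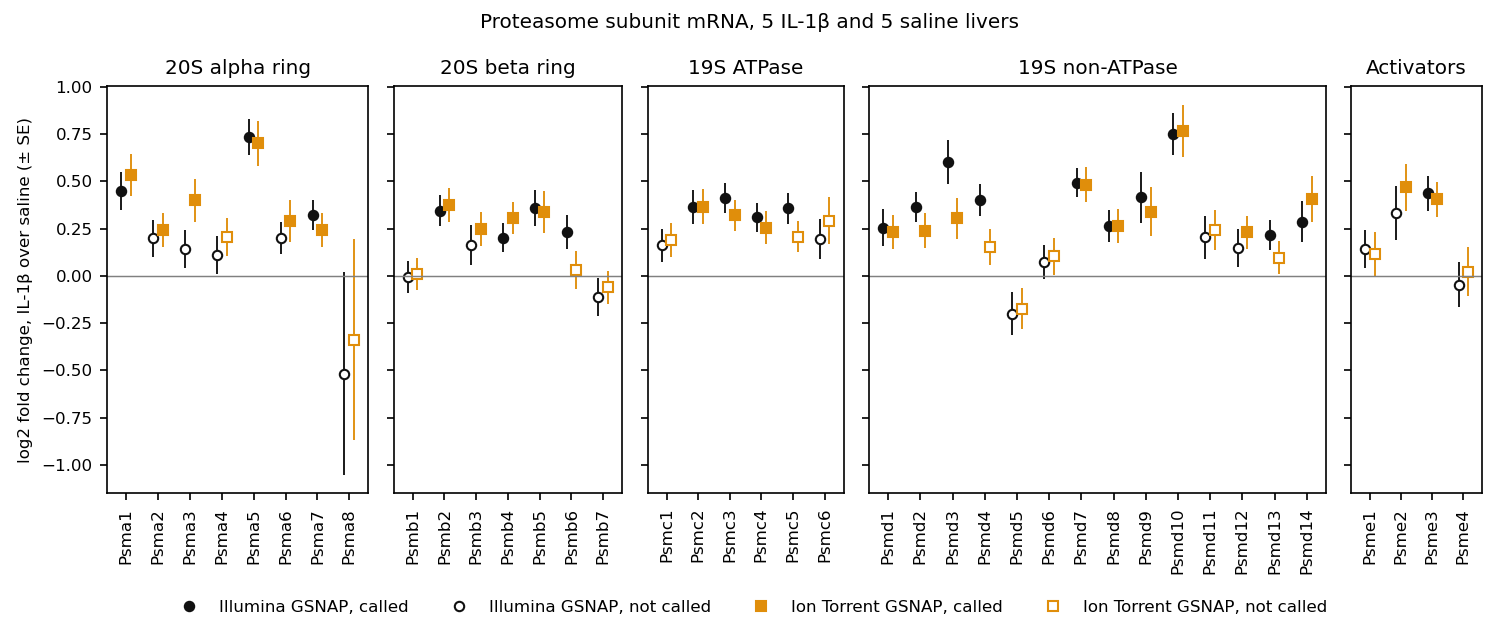
Log2 fold change of each tested member, IL-1β over saline, with its standard error, in the GSNAP tables of Illumina (circles) and Ion Torrent (squares), by subcomplex; filled symbols are called by edgeR after TMM scaling. Psmd10 and Psma5 sit highest on both platforms, Psmb1, Psmb7 and Psme4 lie near 0, and the wide bars of Psma8 come with a mean of 7.50 and 10.9 reads per group on Illumina.

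After TMM scaling, the summed reads of the 39 members show the same size of difference. In the Illumina GSNAP table they were 41117 ± 1247 normalised reads per IL-1β library (SD, n = 5) and 34606 ± 1779 per saline library (SD, n = 5), 18.8% more. The lowest IL-1β library, at 39081, lay above the highest saline library, at 37642. In the Ion Torrent GSNAP table the sums were 55596 ± 2312 and 47256 ± 750 (SD, n = 5 each), 17.6% more, again without overlap. As a share of the unscaled library, members took 0.343% ± 0.00793 of reads after IL-1β and 0.314% ± 0.0120 after saline on Illumina (SD, n = 5 each), with ranges of 0.332% to 0.352% and 0.295% to 0.324%. On Ion Torrent these shares were 0.362% ± 0.0180 and 0.331% ± 0.0100 (SD, n = 5 each), with ranges of 0.339% to 0.386% and 0.319% to 0.345%, which overlap. The relative difference in these unscaled shares was smaller than in the scaled sums on both platforms. By subcomplex, the Illumina sums were higher by 23.3% for the 19S ATPases, 23.4% for the other 19S subunits, 20.9% for the alpha ring, 9.61% for the beta ring and 9.32% for the activators. These sums are descriptions and were not tested.

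Across all 6 count tables, a set of 14 members was called higher in every table, as were 17.3% of all genes. They are Psma1 and Psma5 of the alpha ring, Psmb2, Psmb4 and Psmb5 of the beta ring, Psmc2, Psmc3 and Psmc4 of the ATPase ring, Psmd3, Psmd7, Psmd8, Psmd9 and Psmd10 among the other 19S genes, and the activator Psme3. Of these, 8 were also called in all 60 fits that leave out 1 mouse: Psma1, Psma5, Psmb2, Psmc2, Psmc3, Psmd7, Psmd10 and Psme3. With no scaling factor 6 were called in every table, namely Psma1, Psma5, Psmb2, Psmd7, Psmd10 and Psme3. Another 16 members were called higher in 1 to 5 tables. Among them the alpha subunits Psma2 (0.16 to 0.24), Psma3 (0.08 to 0.40), Psma6 (0.17 to 0.31) and Psma7 (0.24 to 0.33) were called in 2, 1, 3 and 5 tables. The beta subunit Psmb3 (0.13 to 0.30) was called in 3 and the ATPase Psmc6 (0.18 to 0.33) in 1. Of the lid and base subunits Psmd11 (0.17 to 0.27), Psmd12 (0.14 to 0.23) and Psmd13 (0.10 to 0.22) were called in 1, 2 and 2 tables. The 9 that were called in none are Psma4, Psma8, Psmb1, Psmb7, Psmc1, Psmd5, Psmd6, Psme1 and Psme4. After TMM scaling the fold change lay above 0 in all 6 tables for 34 members (36.6% of all genes) and below 0 in all 6 for Psma8, Psmb7 and Psmd5. No share of all genes was counted for the sets of 8, 6, 16 and 9 members, or for changes below 0 in all 6.

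**Figure D2:**
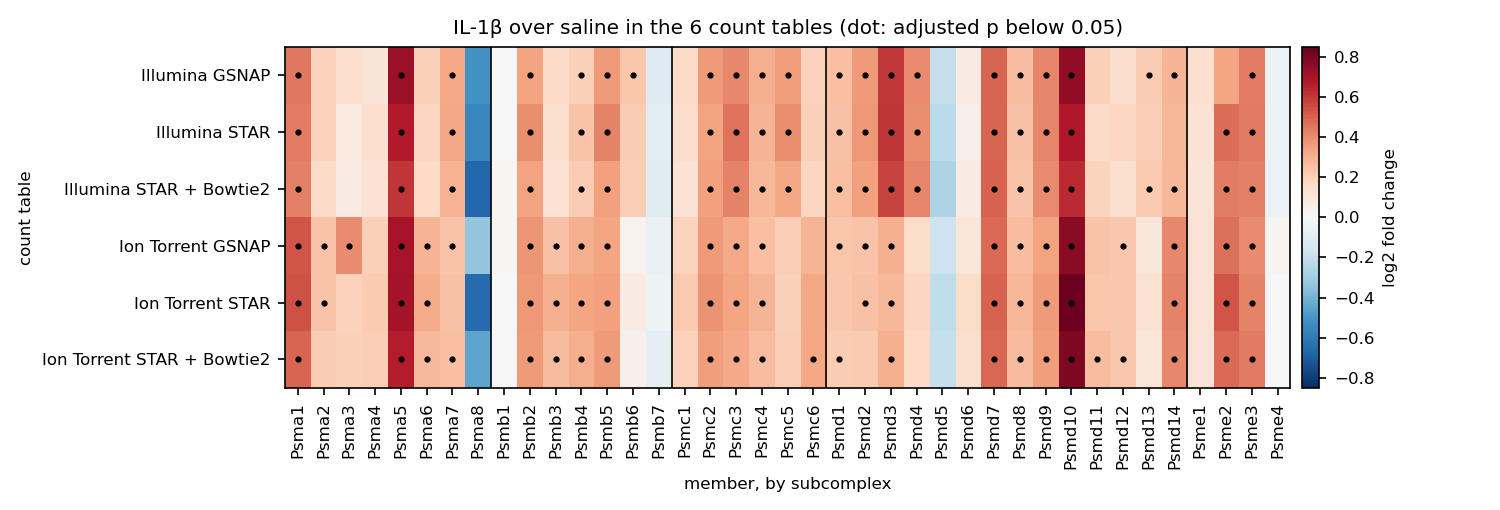
Log2 fold change of the 39 tested members (columns, in subcomplex order) in the 6 count tables (rows); red is higher after IL-1β and a dot marks an adjusted p below 0.05. The 14 members called in every table form columns with 6 dots, and Psmd4 and Psmc5 carry dots in the Illumina rows alone.

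The member with the largest change was Psmd10 (ENSMUSG00000031429, chrX:137482968-137491267 in NCBIM37, minus strand). It encodes gankyrin, a chaperone that holds ATPase subunits while the 19S base is put together and leaves before the particle is finished. On Illumina with GSNAP it had 208, 185, 229, 203 and 194 normalised reads in the IL-1β livers and 119, 118, 117, 108 and 144 in the saline livers. Every treated liver lay above every saline liver. The log2 fold change was 0.75 (SE 0.11, edgeR adjusted p = 7.3e-05), and over the 6 tables it ranged from 0.63 to 0.84. Psmd9, another chaperone of the base, was called higher in all 6 tables, with changes of 0.34 to 0.41, although its groups overlapped in each. Psmd5, also such a chaperone, had changes of -0.26 to -0.17 and was called in no table.

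Among members of the finished 19S cap, Psmd3 (chr11:98543868-98557293, NCBIM37) had the largest Illumina change. It encodes a structural subunit of the lid, and its model overlaps Gm12356 on the other strand. Its counts on Illumina with GSNAP were 1289, 1211, 1212, 1375 and 1469 after IL-1β and 897, 907, 950, 945 and 618 after saline. The lowest of these is mouse UNT_9584, and the groups did not overlap. The log2 fold change was 0.60 (SE 0.12, adjusted p = 0.00069 by edgeR) and 0.50 (adjusted p = 0.00033) without that mouse. On Ion Torrent it was 0.30 (adjusted p = 0.031), with 1 IL-1β liver within the saline range.

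Psmd7 (chr8:110104281-110112382, NCBIM37), the partner of the deubiquitinase Psmd14, changed by nearly the same amount in every table. It had 1146, 1203, 1222, 1207 and 1187 normalised reads after IL-1β and 842, 889, 810, 815 and 883 after saline on Illumina with GSNAP. The groups were far apart relative to their spread. The log2 fold change was 0.49 (SE 0.08, edgeR adjusted p = 9.4e-05), and 0.48 to 0.50 over the 6 tables. Psmd14 itself, the enzyme that cuts ubiquitin off the substrate, was called higher in 5 of 6 tables, at 0.28 to 0.42. Psmd4, a receptor for ubiquitin chains, was called in the 3 Illumina tables (0.40 with GSNAP) and in none of the Ion Torrent tables (0.15 with GSNAP). Psmd1 and Psmd2, the largest scaffold subunits, were called in 5 tables each, at 0.22 to 0.25 and 0.23 to 0.37. The smallest change among the other 19S genes on Illumina was that of Psmd6, a lid subunit, which had 783, 894, 884, 816 and 814 reads after IL-1β and 809, 794, 808, 681 and 894 after saline. Its groups overlapped, and its log2 fold change was 0.07 (adjusted p = 0.55). Of the 14 Psmd genes, 10 were called higher on Illumina with GSNAP (23.7% of all genes) and 9 on Ion Torrent (22.5%).

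All 6 ATPases had changes above 0 in every table after TMM scaling, Psmc1 falling below 0 in 3 tables on the deposited counts, and 4 of 6 were called on Illumina with GSNAP (23.7% of all genes were called higher) and 3 of 6 on Ion Torrent (22.5%). Psmc3 had the largest of them, with 1497, 1490, 1463, 1453 and 1517 reads after IL-1β and 1123, 1093, 1233, 1111 and 1019 after saline on Illumina. The treated livers were closely alike and all above the saline livers. Its log2 fold change was 0.41 (SE 0.08, edgeR adjusted p = 0.00065). Psmc1 had the smallest, with 1123, 1178, 1064, 1192 and 1034 reads after IL-1β and 1011, 1001, 1001, 880 and 1110 after saline, 0.16 on the log2 scale (adjusted p = 0.15), and its groups overlapped. Psmc5 was called in the Illumina tables alone, at 0.36 with GSNAP against 0.21 on Ion Torrent.

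In the alpha ring the change was uneven. Psma5 (ENSMUSG00000068749, chr3:108059844-108082892, NCBIM37) had 333, 341, 385, 349 and 379 reads after IL-1β and 236, 212, 192, 207 and 229 after saline on Illumina with GSNAP. The groups were well separated. Its log2 fold change was 0.73 (SE 0.09, edgeR adjusted p = 2.0e-05), with 0.61 to 0.73 over the 6 tables. Psma1 had 1374, 1503, 1584, 1621 and 1396 reads after IL-1β and 1083, 1115, 957, 992 and 1328 after saline. Mouse UNT_9584 was the highest saline liver and still lay below the lowest treated liver. Its log2 fold change was 0.45 (SE 0.10, adjusted p = 0.0021). Psma4 had 1149, 1220, 1228, 1171 and 1129 reads after IL-1β and 1026, 1066, 976, 1022 and 1378 after saline. Mouse UNT_9584 alone lay above the treated livers there, and the log2 fold change of 0.11 was not called (adjusted p = 0.40), nor was it on Ion Torrent (0.20, adjusted p = 0.11). Without that mouse the Illumina change was 0.21 and was called by edgeR (adjusted p = 0.0366), as it was with both other aligners, and the Ion Torrent change was 0.20 and was not (adjusted p = 0.171).

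Psma8 encodes the alpha subunit of the testis proteasome and was close to the limit of detection in liver. On Illumina it had 21.5, 7.45, 2.15, 5.35 and 1.09 normalised reads after IL-1β and 10.9, 6.43, 13.9, 15.4 and 8.06 after saline. Mouse ILB_9577 held most of the treated reads. The log2 fold change was -0.52 (SE 0.53, edgeR adjusted p = 0.46) and -1.41 (adjusted p = 0.0227) without mouse ILB_9577, so that 1 liver decides whether it is called.

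In the beta ring, 1 of the proteases was called in every table. Psmb5, which carries the chymotrypsin-like activity, had 724, 671, 732, 756 and 761 reads after IL-1β and 538, 499, 627, 651 and 524 after saline on Illumina with GSNAP. All treated livers lay above all saline livers, and the log2 fold change was 0.36 (SE 0.10, edgeR adjusted p = 0.0060). Psmb6, with the caspase-like activity, had 1286, 1170, 1329, 1211 and 1401 reads against 1019, 1016, 1187, 1187 and 1033. Those groups overlapped, and Psmb6 was called in this table (0.23, adjusted p = 0.043) and in none of the other five. Psmb7, with the trypsin-like activity, had 1339, 1475, 1571, 1475 and 1409 reads after IL-1β and 1561, 1550, 1409, 1412 and 1923 after saline. Its change of -0.11 was not called (adjusted p = 0.38). Psmb1, a beta subunit without protease activity, had the smallest change of all members, with 1085, 1234, 1251, 1270 and 1209 reads after IL-1β and 1194, 1224, 1159, 1164 and 1335 after saline. The groups lay on top of each other, at -0.01 (SE 0.08) on the log2 scale. Psmb2 and Psmb4, also without protease activity, were called higher in all 6 tables, at 0.34 to 0.39 and 0.20 to 0.33.

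**Figure D3:**
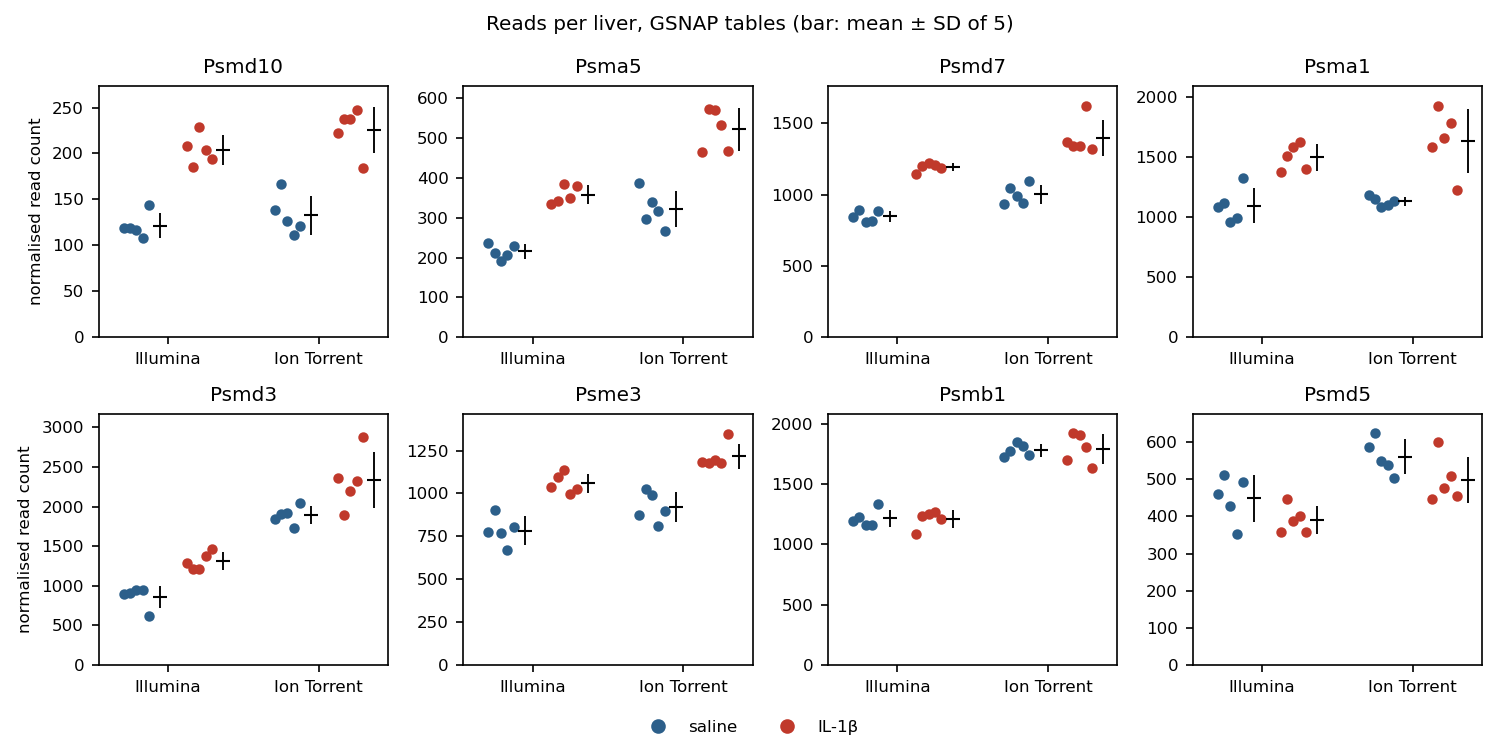
Normalised read counts of 8 members in each liver, saline (blue) and IL-1β (red), on Illumina and Ion Torrent with GSNAP; the black mark is the mean and SD of 5 livers and the axes start at 0. Psmd10, Psma5, Psmd7, Psma1 and Psme3 separate the groups on both platforms, Psmd3 does so on Illumina, and Psmb1 and Psmd5 overlap on both.

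Of the activators, Psme3, whose product is nuclear, was called higher in all 6 tables (0.40 to 0.44). On Illumina with GSNAP it had 1035, 1098, 1137, 998 and 1028 reads after IL-1β and 773, 901, 767, 668 and 805 after saline. The groups did not overlap, and the log2 fold change was 0.44 (SE 0.09, edgeR adjusted p = 0.0013). Psme4, the large single-chain activator, had 1486, 2094, 1667, 2130 and 1688 reads against 2005, 1718, 1802, 1665 and 2168, a change of -0.05 (adjusted p = 0.79). Psme1 and Psme2 form the activator that interferon gamma induces. Psme1 was called in no table (0.11 to 0.14), and Psme2 in 5 of 6 (0.33 to 0.53), the exception being Illumina with GSNAP.

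The separation of the groups was also counted. After TMM scaling, every IL-1β library lay above every saline library for 17 of the 39 members in the Illumina GSNAP table, 43.6%, where 18.2% of all genes did so. In the Ion Torrent GSNAP table this held for 18, 46.2%, where 16.8% of all genes did. No member had every scaled IL-1β library below every saline library in any table, and the share of all genes that did so was not counted. On the deposited counts, a comparison added after the data had been seen, 8 members lay wholly above on Illumina with GSNAP (12.5% of all genes) and 2 wholly below, Psmb1 and Psmb7 (22.4%). On Ion Torrent with GSNAP 4 lay wholly above (11.2%) and 1 wholly below, Psmb7 (22.5%). Deposited counts are not adjusted for the lower totals of the IL-1β libraries.

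The size of these changes was then compared between platforms. The platform-by-treatment term, fitted by edgeR with the mouse as a block, since each liver was sequenced on both platforms, was called for 0 of 39 members with GSNAP (0.0642% of all genes), 0 with STAR (0.00642%) and 0 with STAR and Bowtie2 (0.077%). At an unadjusted p below 0.05 it numbered 3, 4 and 2 of the 39 members, beside 7.799%, 6.997% and 7.767% of all genes. DESeq2 with the same block called 0 members. The lowest unadjusted values were those of Psmd4, whose change was 0.25 lower on Ion Torrent on the log2 scale with GSNAP (SE 0.08, edgeR adjusted p = 0.58), and Psmd3, 0.32 lower (SE 0.12, adjusted p = 0.58). A member called on 1 platform alone is therefore not shown to differ between them.

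The aligner set the level of some members. Sequences at least 90% identical over at least 25% of the longest coding transcript were found elsewhere in the NCBIM37 genome for 15 of the 39 members. On Illumina the STAR count was over 1.5 times the GSNAP count for 4 members, Psma3, Psma5, Psmb3 and Psme2, and each of them has such a copy. Over the members without a copy the ratio of STAR to GSNAP counts ran from 0.893 to 0.946. Psme2 (chr14:56206278-56209950) had a mean of 146 reads with GSNAP and 1026 with STAR on Illumina. Psme2b-ps, at chr11:48758857-48759650, is 99.4% identical to it over 82.5% of the transcript and had 974 reads with GSNAP and 19.3 with STAR.

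Joining the reads of a member and of its annotated copies brought the aligners closer on Illumina. There Psme2 and its copy had 1322 ± 142 normalised reads after IL-1β and 943 ± 72.8 after saline with GSNAP (SD, n = 5 each), a log2 ratio of 0.49. The joined log2 ratio was 0.48 with STAR and 0.43 with STAR and Bowtie2. For Psma5 the joined ratio was 0.69, 0.68 and 0.61 in the 3 Illumina tables. For Psma3 it was 0.07 on Illumina and 0.23 on Ion Torrent with GSNAP, where Psma3's own row had been called at 0.40. These joined ratios were computed after the counts had been seen and were not tested. Psma5's reads cannot be told from those of Gm8394 and Gm12989 by these tables alone.

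**Figure D4:**
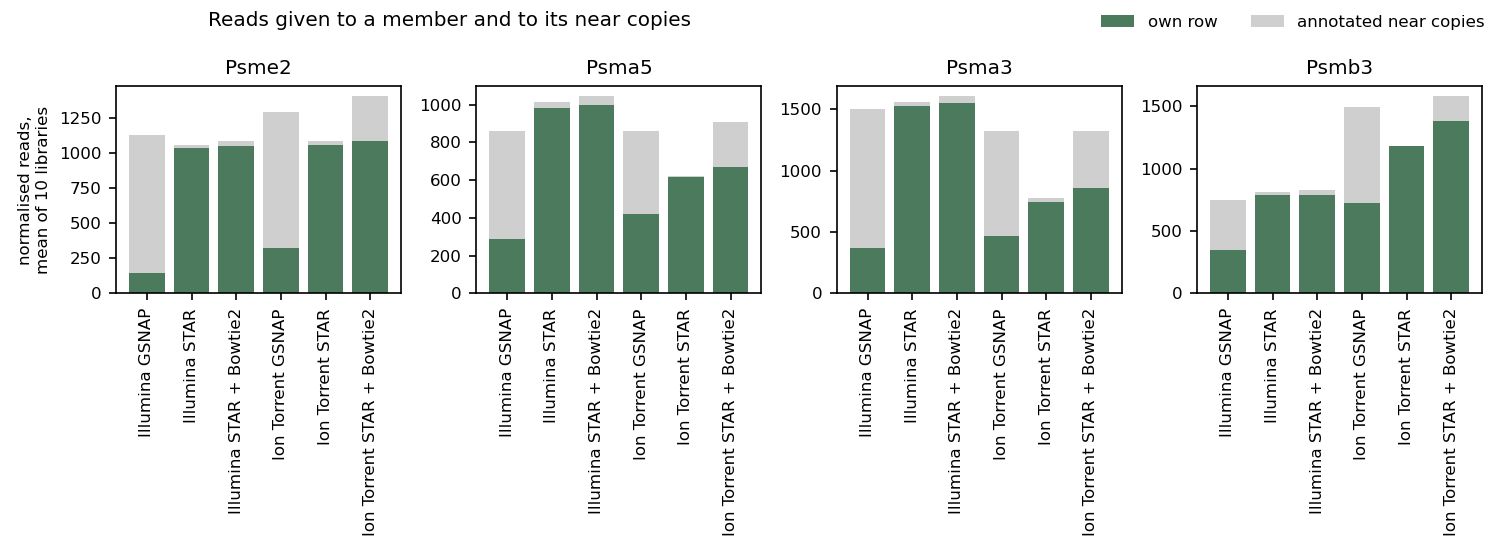
Mean normalised reads over the 10 libraries of each table for 4 members (green) and for their annotated near copies (grey, stacked), by platform and aligner. With GSNAP 13.0% of the joined Psme2 reads on Illumina stand on the Psme2 row, against 98.1% with STAR. On Illumina the joined bars are nearly level across aligners, and on Ion Torrent those of Psma3, Psma5 and Psmb3 are lower with STAR.

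Per length, beta subunits stood highest in saline livers. Divided by the exon length of the gene, Psmb7 had 1294 ± 173 normalised reads per kb and Psmb1 1173 ± 69.4 in the Illumina GSNAP table (SD, n = 5 each), a difference within their spread. Psma6 followed at 977 ± 86.2 and Psmb4 at 913 ± 35.1, also within their spread. The median was 616 over the 7 beta subunits, 477 over the 6 ATPases, 313 over the 8 alpha subunits, 267 over the 14 other 19S genes and 244 over the 4 activators. Psmd10, the member with the largest change, was near the bottom at 82.5 ± 9.25, above Psme2 (73.8 ± 13.7), whose reads GSNAP placed mostly on its copy, and Psma8 (6.39 ± 2.21). Dividing by the longest coding transcript instead put Psmb6 first, at 1364 ± 113.

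Both immunoproteasome subunits with reads rose. Psmb7, the protease that Psmb10 replaces, did not rise, with changes of -0.11 to -0.04 over the 6 tables after TMM scaling. Psmb8, which takes the place of Psmb5, had 425, 326, 407, 466 and 332 reads after IL-1β and 262, 246, 245, 238 and 194 after saline on Illumina with GSNAP. The groups did not overlap, and the log2 fold change was 0.72 (SE 0.12, edgeR adjusted p = 0.00021). Psmb10, which takes the place of Psmb7, had 579, 452, 531, 580 and 659 reads after IL-1β and 246, 233, 296, 287 and 111 after saline. The saline value of mouse UNT_9584 was under any other, and the log2 fold change was 1.25 (SE 0.20, adjusted p = 0.00013). On Ion Torrent the changes were 0.51 and 0.87. Both genes were called in all 6 tables. Psmb9 had 0 reads on Illumina and 1 read on Ion Torrent over 10 libraries. In the annotation its model overlaps another Psmb9 entry and Tap1, and no value is given for it.

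The ratio of the partners within a library needs no scaling. The log2 ratio of Psmb10 to Psmb7 reads was -1.38 ± 0.25 after IL-1β and -2.81 ± 0.76 after saline on Illumina with GSNAP (SD, n = 5 each), a difference of 1.43. On Ion Torrent it was -0.83 ± 0.19 and -1.76 ± 0.16, a difference of 0.93. The groups did not overlap in any of the 6 tables, and the 2-sided exact permutation p was 0.00794 in each, the smallest that 5 against 5 mice can give (0.0159 adjusted over the 12 ratios computed, higher in 5 of 5 mice). Without mouse UNT_9584 the Illumina difference was 1.10. The log2 ratio of Psmb8 to Psmb5 was -0.91 ± 0.20 and -1.26 ± 0.21 on Illumina, a difference of 0.35 (exact permutation p = 0.0476, adjusted 0.0816). On Ion Torrent its difference was 0.16 (exact permutation p = 0.302). The Psmb8 to Psmb5 groups overlapped on both platforms, and neither difference had an adjusted p below 0.05.

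**Figure D5:**
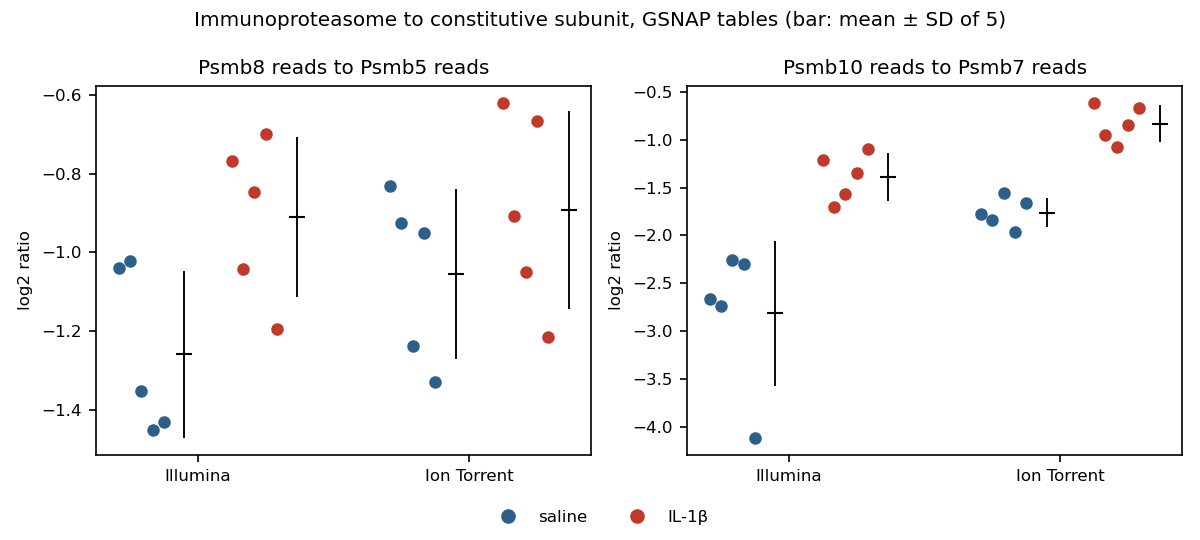
Log2 ratio of immunoproteasome to constitutive subunit reads in each liver, saline (blue) and IL-1β (red), on both platforms with GSNAP, with the mean and SD of 5. The Psmb10 to Psmb7 ratio separates the groups on both platforms, with mouse UNT_9584 lowest at -4.12 on Illumina, and the Psmb8 to Psmb5 ratios overlap.

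Genes around the proteasome did not move as 1 group. Adrm1 and Shfm1 encode 19S subunits that the symbol rule leaves out. Adrm1, a ubiquitin receptor, had 415, 321, 377, 342 and 443 reads after IL-1β and 184, 191, 269, 274 and 116 after saline on Illumina with GSNAP. Its groups did not overlap, and the lowest saline value is that of mouse UNT_9584. Its change was 0.88 (SE 0.19, edgeR adjusted p = 0.0015), the largest of the 6 tables. Adrm1 was called higher in all 6, at 0.62 to 0.88. Shfm1 had 480, 446, 508, 474 and 536 against 481, 450, 501, 519 and 443, with overlapping groups and no call in any table. Pomp, which matures the beta ring, had 1154, 1216, 1331, 1304 and 1166 against 1203, 1215, 1096, 1105 and 1385, also without a call in any table. Among the 5 assembly factors of the core, 1 was called higher on Illumina, Psmg4 (0.78), and none on Ion Torrent.

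Psmf1, an inhibitor of the core particle in the test tube, fell. It had 283, 232, 276, 298 and 275 reads after IL-1β and 326, 358, 358, 345 and 276 after saline on Illumina with GSNAP. The saline value of mouse UNT_9584 lay among the treated livers, the log2 fold change was -0.29 (SE 0.10, edgeR adjusted p = 0.034), and Psmf1 was called lower in 5 of 6 tables. The deubiquitinases that dock on the cap were not alike. Usp14 had 625, 720, 743, 807 and 619 reads against 623, 673, 550, 533 and 788 and was called in no table. Uchl5 had 174, 185, 171, 186 and 159 against 203, 197, 206, 205 and 270, groups that did not overlap. It was called lower in the 3 Illumina tables (-0.30 with GSNAP) and in none of the Ion Torrent tables (-0.11 with GSNAP). Its platform-by-treatment term is not given here, so a difference between platforms is not shown. Of the 16 bound proteins listed, 5 were called higher and 4 lower on Illumina with GSNAP, where 23.7% of all genes were called higher and 23.9% lower. Their median log2 change was 0.09.

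Nfe2l1 encodes the transcription factor known to raise proteasome genes when proteasome activity falls short. It had 2124, 2055, 1987, 2167 and 1975 reads after IL-1β and 1302, 1402, 1289, 1548 and 1584 after saline on Illumina with GSNAP. The groups did not overlap, and the log2 fold change was 0.53 (SE 0.09, edgeR adjusted p = 0.00018), with a call in 5 of 6 tables. Ddi2, the protease that cleaves the Nfe2l1 product, was called higher at 0.64, and Ngly1, which removes its sugars, was called lower at -0.67. Of the 7 genes listed for this control, 3 were called higher and 3 lower on Illumina with GSNAP, beside the same 23.7% and 23.9% of all genes. Of the 6 ubiquitin and activating-enzyme genes 3 were called higher there, with Ubb at 0.88 (0.65 on Ion Torrent). Of the 7 genes of the segregase, which pulls substrates out of complexes ahead of the proteasome, 4 were called higher and 1 lower, with Ufd1l at 0.55 and Vcp at 0.43. Each of these lists is short, and its counts stand beside the same shares of all genes.

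Other large complexes were counted in the same way. The COP9 signalosome, whose subunits resemble those of the 19S lid, had 3 of 9 genes called higher on Illumina with GSNAP (23.7% of all genes, median 0.24 over the list), with Cops2 at 0.46. Translation factor eIF3, the other complex of that architecture, had 8 of 13 called higher (median 0.29), with Eif3d at 1.0. The cytosolic chaperonin had 4 of 8 (median 0.22), with Cct3 at 0.82. None of these lists had a gene called lower in that table. On Ion Torrent with GSNAP (22.5% of all genes called higher), COP9 had 2 called higher and 1 lower (median 0.07), eIF3 6 higher and 0 lower (median 0.30) and the chaperonin 3 higher and 0 lower (median 0.19). The members' shares, 22 of 39 on Illumina and 24 of 39 on Ion Torrent, were not tested against those of these lists.

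Promoters of 33 of the 40 member symbols were matched in RefSeq (GRCm38.p6), from 250 bases before the start to 50 after. No entry was matched for Psma8, Psmb1, Psmb2, Psmb7, Psmc3, Psmd3 and Psmd7. The core of the antioxidant response element, TGACNNNGC, to which Nfe2l1 and its relatives bind, was searched on both strands. It was found in 6 of the 33 (18.2%), beside 14% of 27025 genes. The CCAAT box was found in 13 (39.4% beside 41.1%), GAAANNGAA of interferon-stimulated elements in 6 (18.2% beside 9.76%) and TTCNNNGAA of STAT sites in 1 (3.03% beside 9.55%). A match is a run of letters and does not show binding. The windows given here are the 120 bases before the start of 6 members, with matches in capitals. Psmb5, Psmb6 and Psmd9 are shown for the antioxidant core within this window, chosen after their values were seen. Psmd10, Psma1 and Psme3, also chosen so, are examples of members called higher in every table that hold the CCAAT box in this window (ATTGG where it lies on the other strand). Psmc2 is another such member and is not shown. Psma2, Psma6, Psmb3 and Psmd4 also hold the box there and were called in 2, 3, 3 and 3 tables.
Psmb5 (chr14:54617996-54618115, minus strand): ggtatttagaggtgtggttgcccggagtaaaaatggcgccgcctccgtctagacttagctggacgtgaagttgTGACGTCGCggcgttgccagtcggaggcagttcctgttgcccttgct
Psmb6 (chr11:70525237-70525356, plus strand): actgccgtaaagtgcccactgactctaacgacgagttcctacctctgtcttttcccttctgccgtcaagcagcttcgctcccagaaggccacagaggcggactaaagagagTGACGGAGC
Psmd9 (chr5:123228070-123228189, plus strand): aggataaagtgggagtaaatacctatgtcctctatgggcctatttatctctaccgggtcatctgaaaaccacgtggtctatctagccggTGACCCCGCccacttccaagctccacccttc
Psmd10 (chrX:140956712-140956831, minus strand): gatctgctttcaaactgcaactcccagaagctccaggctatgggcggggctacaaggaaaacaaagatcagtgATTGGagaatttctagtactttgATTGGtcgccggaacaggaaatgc
Psma1 (chr7:114276117-114276236, minus strand): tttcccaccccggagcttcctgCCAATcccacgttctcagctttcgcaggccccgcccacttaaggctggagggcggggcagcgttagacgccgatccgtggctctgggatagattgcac
Psme3 (chr11:101316093-101316212, plus strand): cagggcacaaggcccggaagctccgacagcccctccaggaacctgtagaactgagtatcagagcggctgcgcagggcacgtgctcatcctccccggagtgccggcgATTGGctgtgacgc
Among these, Psmb5 and Psmd9 hold the antioxidant core and were called in all 6 tables, and Psmb6 holds it and was called in 1. The core of Psmb5 starts 47 bases before the start of the gene, that of Psmd9 31 and that of Psmb6 9. The other 3 members with the core are Psme4, at 7 bases before the start and called in no table, Psmc6, at 227 and called in 1, and Psmd12, at 247 and called in 2.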

How the data were processed

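RNA of 20 libraries, from 10 livers on 2 platforms, was analysed from 6 tables of deposited counts. The authors aligned reads to mm9 with GSNAP (2015-12-31), STAR (2.5.1b) or STAR followed by Bowtie2 (2.2.9), and their PORT pipeline removed ribosomal and mitochondrial reads, re-sampled each table to its smallest library and wrote whole-number counts per gene. Library totals still differed within a table after re-sampling, each IL-1β library being smaller than each saline library. The rank test and the separation on deposited counts do not adjust for this. How multi-mapped reads are placed differs by aligner. Whether a count is a read or a pair is not given in the sources used here. Replicates are separate mice per the labels.

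Members and gene lists were chosen with earlier results of these data known. Genes with at least 5 reads in at least 5 libraries of any table were tested by edgeR 4.0.16 (quasi-likelihood, TMM, Benjamini-Hochberg, R 4.3.3), which replaces the rank test of the study. Platform-by-treatment terms carried the mouse as a block, because each liver was sequenced on both platforms, and the deviations of a mouse's libraries correlated at r = 0.198 to 0.720. No pair of libraries agreed within sampling noise. Ratios were compared by exact permutation (scipy 1.17.1). Alternatives used DESeq2 1.42.0, limma 3.58.1 (voom), other scalings, filters and the omission of each mouse. Near copies were sought with BLAST+ 2.17.0. The named genes are the members, with the largest and the smallest change per subcomplex given in full, and the listed related genes. The fit was tested on simulated data. Python 3.11.15 was used for the rest.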

Additional observations from a re-analysis of the deposited data

Results flagged for a closer look

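In 6 of 108 groups of 5 livers, 1 liver lay far from the other four by Dixon's criterion, a rate that chance alone gives in about 1 group in 20. Saline mouse UNT_9584 accounts for 3 on Illumina with GSNAP. Its Psma4 count was 1378, with the others at 976 to 1066. Its Psmd3 count was 618, with the others at 897 to 950. Its Uchl5 count was 270, with the others at 197 to 206. On Ion Torrent with GSNAP, IL-1β mouse ILB_9582 had 1623 reads of Psmd7 (1321 to 1368 in the others), IL-1β mouse ILB_9583 had 1348 reads of Psme3 (1175 to 1195) and saline mouse UNT_9574 had 2017 reads of Psme4 (1516 to 1590). These values are normalised read counts, and their cause was not tested.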

How the results depend on the processing

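Over 4212 recomputed values for single members, 3513 kept their direction and side of the threshold, 465 lost a call, 123 gained one and 111 changed sign. None of the 111 was called before or after the change of setting. With no scaling factor the members called higher and lower were 13 and 2 (Illumina GSNAP), 14 and 1 (Illumina STAR), 13 and 1 (Illumina STAR and Bowtie2), 8 and 0 (Ion Torrent GSNAP), 8 and 1 (Ion Torrent STAR), and 11 and 1 (Ion Torrent STAR and Bowtie2). The rank test on deposited counts gave 12 and 2, 10 and 2, 15 and 1, 7 and 1, 7 and 0, and 8 and 1 in the same order. Without the filter on low counts, 15 (Ion Torrent GSNAP) and 13 (Ion Torrent STAR and Bowtie2) were called higher. Lower calls fell on Psmb7 and Psmd5 without scaling and on Psmb1 and Psmb7 by rank in the Illumina GSNAP table. Leaving out 1 mouse gave 16 to 26, 17 to 27, 18 to 26, 13 to 21, 14 to 23 and 12 to 19 higher calls in that order, and 0 to 1 lower calls in every table but Ion Torrent GSNAP, where it was 0. The lower calls were Psma8 without mouse ILB_9577 and Psmd5 without mouse UNT_9580 or ILB_9578. On Ion Torrent with GSNAP the higher calls numbered 13, 15 and 14 without mice ILB_9582, UNT_9575 and UNT_9576, and with STAR and Bowtie2 12, 15, 14 and 15 without mice ILB_9582, UNT_9574, UNT_9576 and UNT_9580. Without mouse UNT_9584 they were 26, 27, 26, 18, 16 and 18. Shares of all genes beside these higher and lower calls were counted without scaling and by rank in the GSNAP tables alone. With no replicate block for the mouse the platform term was called for 0 members with each aligner, as with the block. The cause of these shifts was not tested. A member without a call is not shown to be unaffected.

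The changes of sign, as log2 fold changes over the tables concerned, were these. By the rank test on deposited counts the changes crossing 0 were Psma3 -0.029, -0.093 and -0.067, Psma4 -0.058, -0.032 and -0.020, Psmb1 -0.13, -0.14, -0.15 and -0.13, Psmb3 -0.011, -0.039 and -0.014, Psmb6 -0.12, -0.089 and -0.090, Psmc1 -0.011, -0.025 and -0.026, Psmd11 -0.0047, Psmd12 -0.023 and -0.0092, Psmd13 -0.056, -0.030 and -0.033, Psmd6 -0.10, -0.13, -0.079, -0.043 and -0.00090, Psme1 -0.028, -0.054, -0.035, -0.026, -0.039 and -0.019, Psme4 -0.13 and -0.13. With no scaling factor the changes crossing 0 were Psma3 -0.044 and -0.021, Psma4 -0.0086, Psmb1 -0.086, -0.096, -0.11 and -0.093, Psmb6 -0.073, -0.046 and -0.051, Psmd13 -0.013, Psmd6 -0.050, -0.076, -0.033 and -0.00019, Psme1 -0.0051, Psme4 -0.089 and -0.094. Without the filter the changes crossing 0 were Psmb1 0.017, 0.0011 and -0.0067, Psme4 0.016 and -0.0052. With the filter within each table the changes crossing 0 were Psmb1 -0.00096 and -0.0052, Psme4 0.019 and -0.0033. With RLE size factors Psme4 had 0.010. By DESeq2 Psme4 had 0.010. By limma-voom Psme4 had -0.0053. Leaving out 1 mouse gave ranges across 0 for Psmb1 (-0.041 to 0.030, -0.027 to 0.043, -0.0079 to 0.062, -0.016 to 0.036, -0.019 to 0.065, -0.025 to 0.027), Psme4 (-0.13 to 0.018, -0.12 to 0.017, -0.12 to 0.018, -0.092 to 0.11, -0.10 to 0.081, -0.11 to 0.095), Psmb6 (-0.013 to 0.084, -0.015 to 0.099).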
